A study of Mus musculus with 8 samples.

Results

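Monocytes that enter the brain and become macrophages are usually told from resident microglia by a short list of transcripts, and the expression of 10 of them is described here in cells of a mouse brain tumor. The genes were taken by name as markers of monocyte-derived macrophages: Ly6c2, Plac8, Fn1, Vim, Ahnak, Tgfbi, Thbs1, Kynu, Emb and Lyz2. All 10 were found among the 38026 genes of the deposited table, and all 10 passed the filter on low values, which kept 15262 genes. Bulk RNA-seq libraries had been made from cells pulled out of dissociated tissue with magnetic beads against CD11b, the product of Itgam, a protein of microglia, macrophages, monocytes and granulocytes. The TAM group had 5 libraries of tumor-associated microglia and macrophages from medulloblastoma, a cerebellar tumor, in mice aged 68, 90, 61, 66 and 62 days for replicates 1 to 5. The Microglia group had 3 libraries, made from the healthy cerebral cortex of 60-day-old mice. All mice were labelled C57BL/6, and RNA was extracted with Trizol. The genotype that gave rise to the tumors, and any pooling of animals, are not stated in the labels. Tumor and brain region differ together between the groups and cannot be told apart. No source says that the libraries of a group came from separate animals, although the TAM ages differ, so p-values measure the spread between libraries.

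As background, microglia arise early in development and maintain themselves in the brain, while classical monocytes come from the bone marrow through the blood and carry the surface protein Ly6C. Monocytes that settle in inflamed or tumor tissue lose Ly6C as they turn into macrophages, and they keep more lysozyme and more cytoskeletal, matrix and adhesion transcripts than microglia do. None of the 10 genes belongs to a single cell type: fibronectin, vimentin and Ahnak are also made by endothelial cells, fibroblasts and astrocytes, and lysozyme is also made by activated microglia. In bulk libraries, fewer cells of a type and less RNA per cell cannot be told apart.

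A pair of the markers has a near-identical neighbor in the genome, so the coding sequences are shown first. Ly6c2 and Ly6c1 lie on chromosome 15 and encode closely related Ly6C proteins. Ly6c1 is a gene of endothelial cells as well. Lyz2 and Lyz1 lie on chromosome 10 and encode the lysozymes of macrophages and of Paneth cells. Coding exon windows of 120 bases are given 5′ to 3′ on the transcribed minus strand of GRCm38, with capitals at the bases that differ within each pair. The Ly6c2 window is chr15:75108612-75108731, the Ly6c1 window is chr15:75045471-75045590, the Lyz2 window is chr10:117282117-117282236 and the Lyz1 window is chr10:117292713-117292832.
Ly6c2: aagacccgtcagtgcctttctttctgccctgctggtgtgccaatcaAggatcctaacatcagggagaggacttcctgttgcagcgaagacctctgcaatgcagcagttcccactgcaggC
Ly6c1: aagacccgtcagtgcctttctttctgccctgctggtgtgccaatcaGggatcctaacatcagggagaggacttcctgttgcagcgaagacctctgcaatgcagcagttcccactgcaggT
Lyz2: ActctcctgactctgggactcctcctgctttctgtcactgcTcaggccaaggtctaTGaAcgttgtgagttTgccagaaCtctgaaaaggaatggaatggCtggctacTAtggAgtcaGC
Lyz1: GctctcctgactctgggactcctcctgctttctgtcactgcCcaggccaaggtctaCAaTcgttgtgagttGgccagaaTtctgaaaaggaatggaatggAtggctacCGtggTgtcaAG
The Ly6c windows differed at 2 bases and the lysozyme windows at 13. Over the whole coding sequence 387 of 396 bases were identical between Ly6c2 and Ly6c1 (97.7%), with a longest shared run of 188 bases. Between Lyz2 and Lyz1 425 of 447 bases were identical (95.1%), with a longest shared run of 118 bases. The labels do not say how the authors' quantifier divided reads between such genes, so values of Ly6c2 are uncertain and are given with those of Ly6c1. The ribosomal protein gene Rpl3, which also has processed copies elsewhere in the genome, was listed at 391 to 860 TPM in TAMs, against 1.65 to 2.79 TPM in Microglia, and the part of read division in these values was not tested.

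Values are TPM (transcripts scaled to a fixed total), which corrects for gene length but holds no information on how many reads a library had, and that number is unknown. At least 1 TPM was reached by 12683 to 14242 genes per library in TAMs and by 14375 to 16619 in Microglia. Differences are log2 fold changes of TPM + 1, TAMs over Microglia, with limma's standard error (SE) and a p-value adjusted by Benjamini-Hochberg over all 15262 genes, called at 0.05. On this scale the median gene differed by -0.65, with 8.22% of genes called higher and 56.4% called lower in TAMs, so that 12.7% of the calls were higher. Rescaled TPM, in which libraries were divided by their median ratio to an average library, brought the median to -0.017, with 25.2% of genes called higher, 24.1% called lower and 51.1% of the calls higher. Calls and counts below are given on TPM, and on rescaled TPM too where these differ. Every count of a list is to be read beside these shares of all genes. Itgam, the target of the beads, was present in every library at 150 to 233 TPM in TAMs, against 625 to 655 TPM in Microglia. Ptprc, the leukocyte surface gene CD45, had 83.4 to 177 TPM in TAMs, against 95.1 to 103 TPM in Microglia.

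The 10 markers did not move together. Lyz2, Thbs1 and Plac8 were higher in TAMs (3 of 10, against a background of 8.22% of genes). Fn1 and Ahnak were lower (2 of 10, against a background of 56.4%). Ly6c2, Vim, Tgfbi, Kynu and Emb did not pass the test. The median log2 fold change of the 10 was 0.41, against -0.65 for all tested genes. On rescaled TPM 4 were higher, Kynu being added, and 1 was lower, Fn1, with a median of 1.12 against -0.017. With libraries scaled to their Ptprc level, 3 were higher and 2 lower, against 4.34% and 43.9% of all genes. In the authors' deposited table, with its p-values adjusted here, 6 were higher (Ly6c2, Plac8, Tgfbi, Thbs1, Kynu and Lyz2) and 1 was lower (Fn1), against 17.6% and 16.0% of the 27039 genes with a p. The TAM libraries lay above all Microglia libraries for 4 of the 10 (Lyz2, Thbs1, Plac8 and Kynu), against 7.97% of tested genes, and below all of them for Fn1 alone, against 49.7%. The label of monocyte-derived macrophage markers was thus met by the direction of some members and not of others, and the genes are called the 10 markers here.

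**Figure D1:**
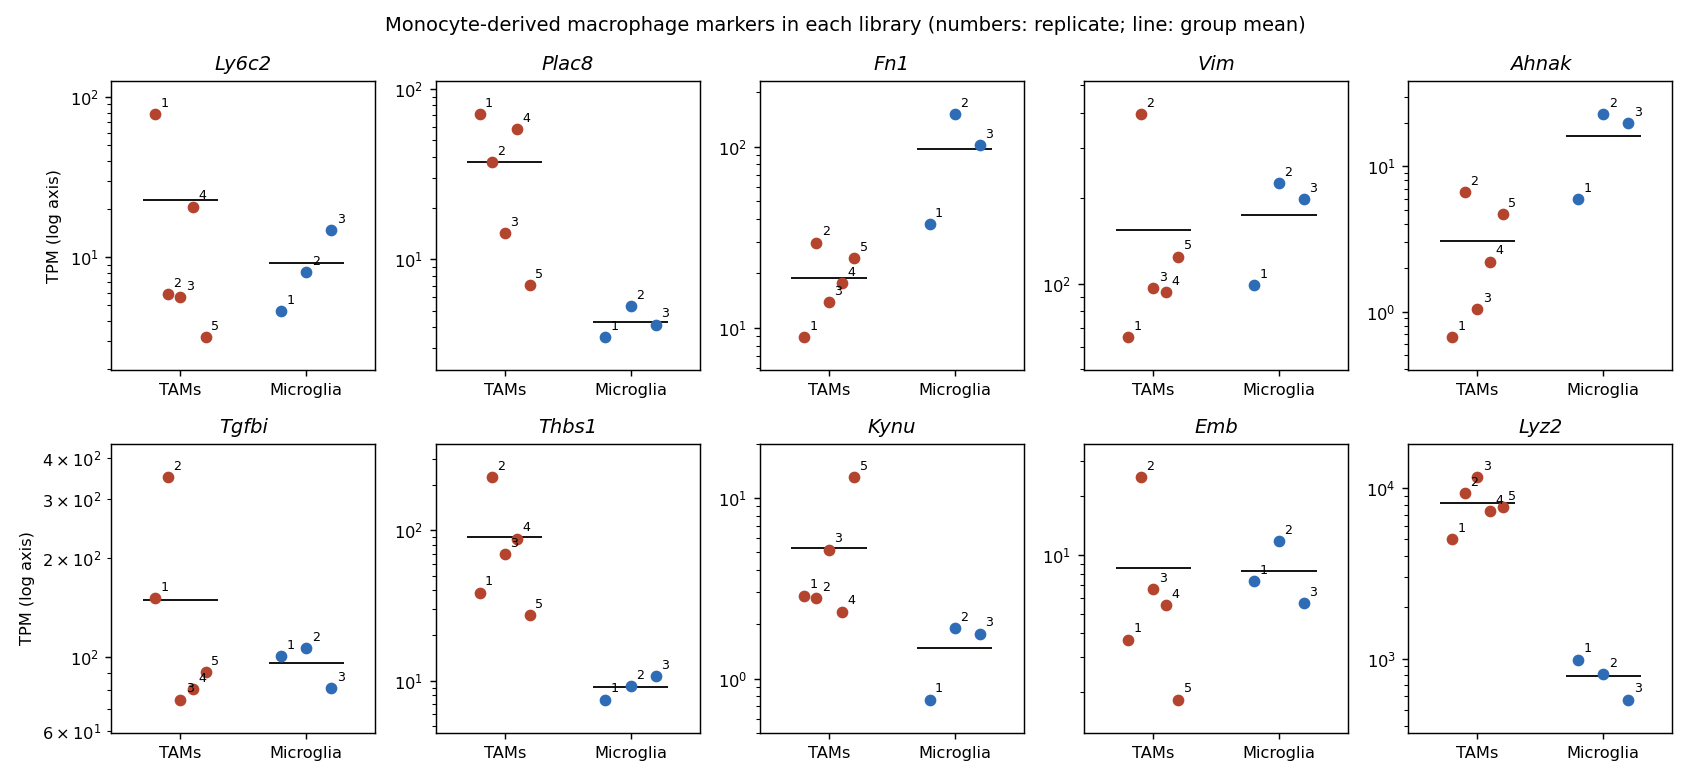
TPM of each of the 10 markers in every library, 1 panel per gene, on log axes, with TAM libraries on the left, Microglia libraries on the right, replicate numbers beside the points and a line at each group's mean. TAM libraries lie above all Microglia libraries for Lyz2, Thbs1, Plac8 and Kynu, and below all of them for Fn1.

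**Figure D2:**
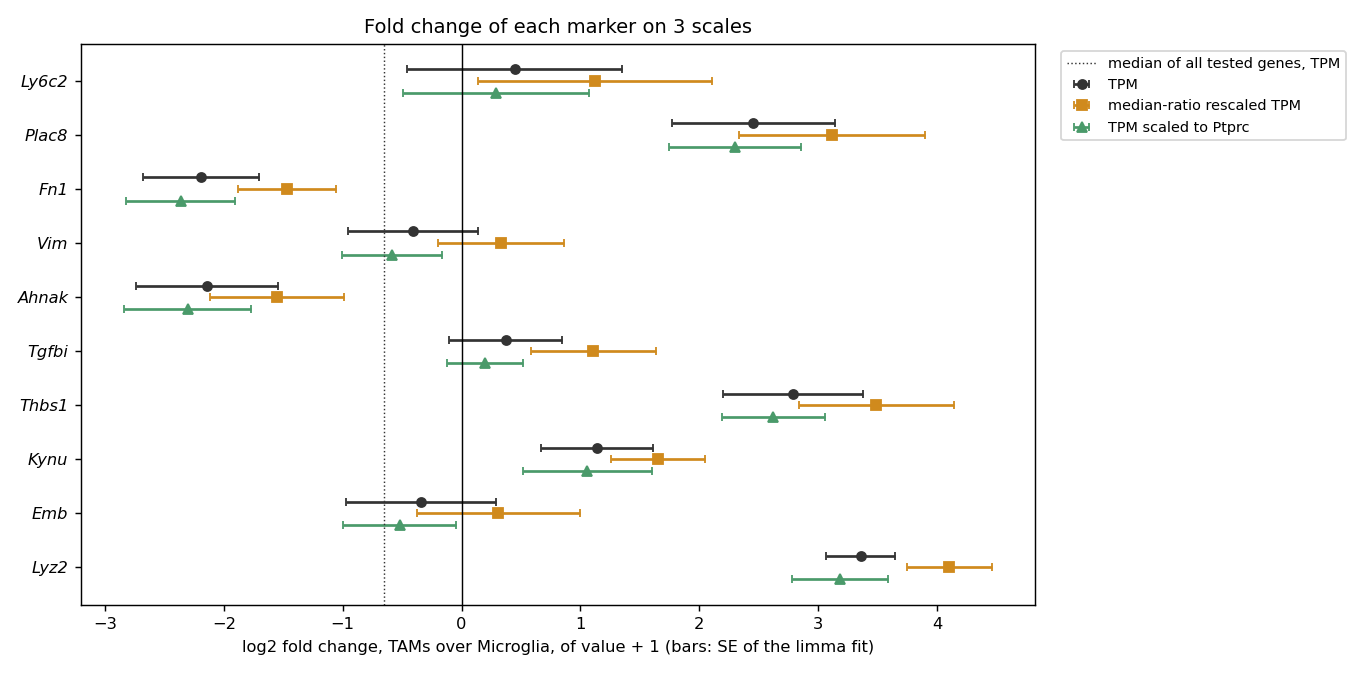
log2 fold change of TPM + 1, TAMs over Microglia, for each marker on TPM, on median-ratio rescaled TPM and on TPM scaled to Ptprc, with bars for limma's SE and a dotted line at the median of all tested genes on TPM. Lyz2, Thbs1 and Plac8 lie right of 0 and Fn1 and Ahnak left of 0 on all 3 scales, while Vim and Emb change side on rescaled TPM.

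Ly6c2 (chr15:75108158-75111970, mm10) encodes the Ly6C protein by which classical monocytes are sorted. It had 77.9, 5.88, 5.64, 20.7 and 3.19 TPM in TAM replicates 1 to 5, against 4.63, 8.09 and 14.7 TPM in Microglia replicates 1 to 3. The groups overlapped: only TAM replicates 1 and 4 exceeded every Microglia library. The mean was 22.7 ± 31.6 TPM in TAMs, against 9.15 ± 5.14 TPM in Microglia (SD, n = 5 and 3), and the log2 fold change of 0.45 (SE 0.90, limma adjusted p = 0.677) did not pass the test. Without TAM replicate 1 it was -0.21, and on rescaled TPM it was 1.12 (limma adjusted p = 0.372). In the authors' deposited table the log2 fold change of Ly6c2 was 2.04, with a DESeq2 p that became 0.0440 when adjusted here over the 27039 genes with a deposited p.

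The neighbor Ly6c1 was lower in TAMs. It had 1.10, 2.01, 1.01, 3.65 and 15.8 TPM in TAM replicates 1 to 5, against 217, 712 and 564 TPM in Microglia replicates 1 to 3. Its log2 fold change was -6.81 (limma adjusted p = 0.00019), and -6.19 on rescaled TPM. Ly6c2 thus made up 98.6%, 74.5%, 84.8%, 85.0% and 16.8% of the summed TPM of both genes in TAM replicates 1 to 5, against 2.09%, 1.12% and 2.54% in Microglia replicates 1 to 3. The share averaged 72.0 ± 32.0% in TAMs and 1.92 ± 0.726% in Microglia (SD, n = 5 and 3; exact two-sided permutation test, p = 0.0357, the smallest that 5 against 3 libraries allow). The sum of both genes was lower in TAMs, at 27.4 ± 29.8 TPM against 507 ± 257 TPM in Microglia, a log2 fold change of -4.54 (SE 0.76, limma adjusted p = 0.00133). TAM replicate 5, with the lowest Ly6c2 share, also had the highest summed endothelial markers of the TAM libraries, 90.2 TPM against 14.6 to 44.3 TPM in the others. It was, however, the highest TAM library for 59.4% of all tested genes. The 12 endothelial markers summed to 14.6 to 90.2 TPM in TAMs, against 462 to 1520 TPM in Microglia, all 12 were lower in TAMs on both scales, and their part in the Ly6c1 values was not tested.

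**Figure D3:**
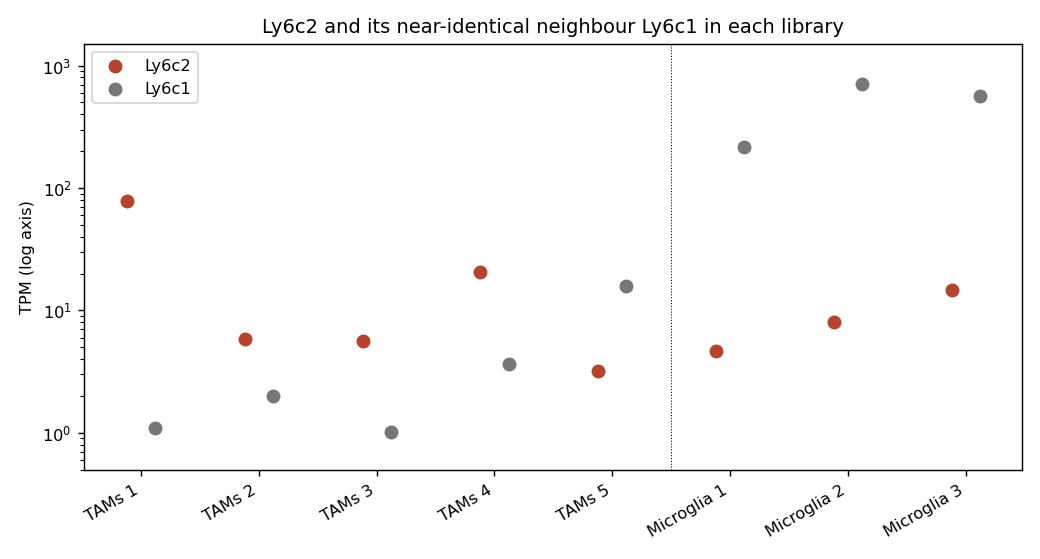
TPM of Ly6c2 and Ly6c1 in each library on a log axis, TAMs left of the dotted line and Microglia right of it. Ly6c2 lies above Ly6c1 in TAM replicates 1 to 4, and below it in TAM replicate 5 and in all 3 Microglia libraries, where Ly6c1 is at 217 to 712 TPM.

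Of 9 other Ly6 genes listed, 5 were tested, Ly6c1 among them. None was higher and 2 were lower in TAMs on TPM, while 1 was higher (Ly6e) and 2 were lower on rescaled TPM. Ly6a, the stem cell antigen Sca-1 that is also made by endothelial cells and induced by interferon, had 5.02 to 102 TPM in TAMs, against 109 to 343 TPM in Microglia (log2 fold change -3.48, limma adjusted p = 0.00755). Ly6a was highest among TAM libraries in replicate 1, as Ly6c2 was.

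Plac8 (chr5:100553725-100572245), which encodes a small cysteine-rich protein abundant in monocytes and other blood leukocytes, was higher in TAMs. It had 70.7, 37.3, 14.2, 57.7 and 7.05 TPM in TAM replicates 1 to 5, against 3.50, 5.29 and 4.13 TPM in Microglia replicates 1 to 3. Every TAM library exceeded every Microglia library, with TAM replicates 1 and 4 highest, as for Ly6c2, and TAM replicate 5 lowest. The mean was 37.4 ± 27.3 TPM in TAMs, against 4.31 ± 0.905 TPM in Microglia (SD, n = 5 and 3), a log2 fold change of 2.45 (SE 0.68, limma adjusted p = 0.0132). On rescaled TPM it was 3.12, and without single libraries it stayed between 2.12 and 2.91.

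The promoters of Ly6c2 and Plac8 are shown because these are the surface and cytosolic markers most closely tied to blood monocytes. Sequences run from 250 bases before to 50 after the start, from RefSeq on GRCm38.p6, 5′ to 3′ on the minus strand, with capitals at matches of GAGGAA on either strand, the core bound by the myeloid factor PU.1. Both genes have 2 entries, of which 1 each is shown. The Ly6c2 entry shown is chr15:75111888-75112187, and its other entry overlaps it and also holds GAGGAA. The Plac8 entry shown is chr5:100572156-100572455, and its other entry, chr5:100563047-100563346, holds no GAGGAA.
Ly6c2 promoter: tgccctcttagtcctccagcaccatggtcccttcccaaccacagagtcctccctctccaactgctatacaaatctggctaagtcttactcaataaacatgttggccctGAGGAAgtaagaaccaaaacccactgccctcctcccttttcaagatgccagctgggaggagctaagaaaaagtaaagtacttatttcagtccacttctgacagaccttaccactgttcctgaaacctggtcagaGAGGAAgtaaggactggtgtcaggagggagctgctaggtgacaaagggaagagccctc
Plac8 promoter: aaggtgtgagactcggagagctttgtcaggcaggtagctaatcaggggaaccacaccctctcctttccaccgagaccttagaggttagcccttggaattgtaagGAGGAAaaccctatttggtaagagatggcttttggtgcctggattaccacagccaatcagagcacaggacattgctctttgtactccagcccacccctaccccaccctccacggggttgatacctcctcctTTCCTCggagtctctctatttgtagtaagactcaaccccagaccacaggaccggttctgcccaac
Of the 10 markers 7 had a promoter, with 9 entries in all. GAGGAA was in 4 of the 9 entries (2 of Ly6c2, 1 of Plac8 and 1 of Vim), against 28.3% of all 32851 entries searched. Spi1, which encodes PU.1, had 247 to 312 TPM in TAMs, against 267 to 320 TPM in Microglia.

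Lyz2 (chr10:117277334-117282274), the lysozyme of macrophages, had the largest fold change and the highest level of the 10 on both scales. It had 5005, 9356, 11603, 7355 and 7740 TPM in TAM replicates 1 to 5, against 986, 807 and 574 TPM in Microglia replicates 1 to 3. The lowest TAM library stood well above the highest Microglia library. The mean was 8212 ± 2452 TPM in TAMs, against 789 ± 206 TPM in Microglia (SD, n = 5 and 3), a log2 fold change of 3.36 (SE 0.29, limma adjusted p = 8.44e-05). On rescaled TPM it was 4.10, and without single libraries it stayed between 3.15 and 3.54. Lyz2 was also the most even marker among TAMs, the highest library having 2.32 times the lowest. Lyz1 was higher too, at 18.4 ± 8.96 TPM in TAMs, against 1.09 ± 0.389 TPM in Microglia (log2 fold change 3.09, limma adjusted p = 0.000423). Lyz2 made up 99.6% to 99.9% of the summed TPM of both genes in TAMs and 99.8% to 99.9% in Microglia, and the sum gave the same log2 fold change of 3.36. Lyg1 was listed at 0 in every library.

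Fn1, Thbs1 and Tgfbi encode secreted proteins of the extracellular matrix, and they went in different directions. Thbs1 (chr2:118111876-118127133), which encodes thrombospondin 1, an adhesive glycoprotein that binds CD36 and CD47 and activates TGF-β, was higher in TAMs. It had 38.6, 226, 69.6, 88.2 and 27.4 TPM in TAM replicates 1 to 5, against 7.49, 9.17 and 10.7 TPM in Microglia replicates 1 to 3. Every TAM library was above every Microglia library, and TAM replicate 2 was highest. The mean was 89.9 ± 79.8 TPM in TAMs, against 9.13 ± 1.63 TPM in Microglia (SD, n = 5 and 3), a log2 fold change of 2.79 (SE 0.59, limma adjusted p = 0.00394). On rescaled TPM it was 3.49, and without single libraries it stayed between 2.36 and 3.11.

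Fn1 (chr1:71585520-71653200), which encodes fibronectin, the matrix ligand of integrin α5β1, was lower in TAMs. It had 8.94, 29.6, 13.9, 17.7 and 24.3 TPM in TAM replicates 1 to 5, against 37.4, 151 and 102 TPM in Microglia replicates 1 to 3. Every TAM library was below every Microglia library, with Microglia replicate 1 nearest to them. The mean was 18.9 ± 8.20 TPM in TAMs, against 96.7 ± 56.9 TPM in Microglia (SD, n = 5 and 3), a log2 fold change of -2.19 (SE 0.49, limma adjusted p = 0.00491). On rescaled TPM it was -1.47 (limma adjusted p = 0.0189) and the groups overlapped. Between Microglia libraries Fn1 moved with markers of other brain cells: Microglia replicates 2 and 3 had 4.03 and 2.72 times the Fn1 of replicate 1, and 3.29 and 2.38 times its summed endothelial markers. The 8 fibroblast and meninges markers were at 2.96 and 2.17 times and the 9 astrocyte markers at 5.59 and 4.04 times. The typical gene was also higher in Microglia replicates 2 and 3. The median ratio to an average library, used for rescaling, was 1.07, 1.47 and 1.35 in Microglia replicates 1 to 3. Summed fibroblast and meninges markers came to 4.78 to 38.0 TPM in TAMs, against 178 to 527 TPM in Microglia, with 8 of 8 lower in TAMs on TPM and 5 of 8 on rescaled TPM. Mgp, among them, had 0.335 to 11.9 TPM in TAMs, against 132 to 384 TPM in Microglia. The part of these cells in the Fn1 values was not tested.

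Tgfbi (chr13:56609603-56639339), a matrix protein induced by TGF-β, had 151, 350.3, 74.6, 80.4 and 90.4 TPM in TAM replicates 1 to 5, against 101, 106 and 80.9 TPM in Microglia replicates 1 to 3. The groups overlapped, and only TAM replicates 1 and 2 exceeded every Microglia library. The mean was 149 ± 116 TPM in TAMs, against 96.1 ± 13.4 TPM in Microglia (SD, n = 5 and 3). The log2 fold change of 0.37 (SE 0.47, limma adjusted p = 0.507) did not pass the test, nor did that of 1.11 on rescaled TPM (limma adjusted p = 0.114). Without TAM replicate 2 it was -0.0039. The authors' deposited table gives Tgfbi a log2 fold change of 1.42, with an adjusted p of 0.0226 when computed here from its DESeq2 p-values.

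Of the receptors of these matrix proteins 3 of 10 were called lower on TPM, and of their partners 6 of 10, beside 56.4% of all genes. Of the 10 matrix receptors 2 were higher, the fibronectin receptor subunit Itga5 and the thrombospondin receptor Cd36, and 3 were lower, Itgb1, Itgb3 and Lrp1. Cd36 had 13.4 to 41.1 TPM in TAMs, against 9.65 to 14.5 TPM in Microglia (log2 fold change 0.86, limma adjusted p = 0.0436). Itga5 had 19.3 to 25.9 TPM in TAMs, against 13.9 to 19.0 TPM in Microglia (0.40, limma adjusted p = 0.0388). With Ptprc scaling neither Cd36 nor Itga5 passed (limma adjusted p = 0.0723 and 0.535), and leaving out any single library left 0 or 1 of the 10 receptors higher. On rescaled TPM 3 of the 10 were higher and none was lower, so Itgb1, Itgb3 and Lrp1 lost their calls there. Of 10 tested matrix partners of 12 listed, none was higher and 6 were lower on TPM, against 1 and 3 on rescaled TPM. Tgfbr1, a receptor of TGF-β, was lower on both scales, with 92.8 to 149 TPM in TAMs, against 436 to 495 TPM in Microglia (log2 fold change -1.85, limma adjusted p = 6.44e-05). Tgfb1, the ligand, had 153 to 181 TPM in TAMs, against 250 to 280 TPM in Microglia (-0.64, limma adjusted p = 0.000648), a call that did not hold on rescaled TPM (0.11, limma adjusted p = 0.604).

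Vim and Ahnak are cytoskeletal markers. Vim (chr2:13573927-13582826) encodes vimentin, the intermediate filament of mesenchymal and myeloid cells. It had 65.1, 395.5, 96.5, 93.5 and 125 TPM in TAM replicates 1 to 5, against 99.3, 226 and 199 TPM in Microglia replicates 1 to 3. TAM replicate 2 stood above every Microglia library and TAM replicates 1, 3 and 4 below them. The mean was 155 ± 136 TPM in TAMs, against 175 ± 66.9 TPM in Microglia (SD, n = 5 and 3), and the log2 fold change of -0.41 (SE 0.55, limma adjusted p = 0.526) did not pass the test. On rescaled TPM its sign turned, at 0.33 (limma adjusted p = 0.626). Without TAM replicate 2 it was -0.83 on TPM (limma adjusted p = 0.0503), and without other single libraries it lay between -0.77 and -0.18.

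Ahnak (chr19:8989284-9076919) encodes a very large scaffold protein under the plasma membrane. It had 0.671, 6.62, 1.04, 2.21 and 4.67 TPM in TAM replicates 1 to 5, against 5.95, 22.8 and 19.8 TPM in Microglia replicates 1 to 3. Of the TAM libraries 4 of 5 were below every Microglia library, TAM replicate 2 lying above Microglia replicate 1. The mean was 3.04 ± 2.54 TPM in TAMs, against 16.2 ± 8.98 TPM in Microglia (SD, n = 5 and 3), a log2 fold change of -2.14 (SE 0.60, limma adjusted p = 0.0132). The call was lost on rescaled TPM (-1.55, limma adjusted p = 0.0505), without Microglia replicate 2 (-1.81, limma adjusted p = 0.0628) and without Microglia replicate 3 (-1.91, limma adjusted p = 0.0570). Microglia replicates 2 and 3 had 3.83 and 3.33 times the Ahnak of replicate 1, beside the ratios for endothelial, fibroblast and astrocyte markers given with Fn1. Of 7 genes of intermediate filaments and their linkers 1 was higher, the nuclear lamin Lmnb1, and 4 were lower (1 and 3 on rescaled TPM). Beside these stand 8.22% of all genes higher and 56.4% lower on TPM (25.2% and 24.1% on rescaled TPM). Lmnb1 had 31.3 to 40.0 TPM in TAMs, against 7.59 to 9.37 TPM in Microglia (log2 fold change 1.90, limma adjusted p = 2.69e-05). The muscle filament Des, made in the brain by mural cells, had 0.0606 to 0.308 TPM in TAMs, against 7.33 to 13.6 TPM in Microglia. All 10 mural markers were lower in TAMs on TPM and 9 on rescaled TPM, at a sum of 6.33 to 19.0 TPM in TAMs, against 290 to 664 TPM in Microglia. The astrocyte filament Gfap had 0.770 to 6.20 TPM in TAMs, against 20.9 to 198 TPM in Microglia, and astrocyte markers summed to 16.2 to 75.7 TPM in TAMs, against 87.6 to 490 TPM in Microglia.

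**Figure D4:**
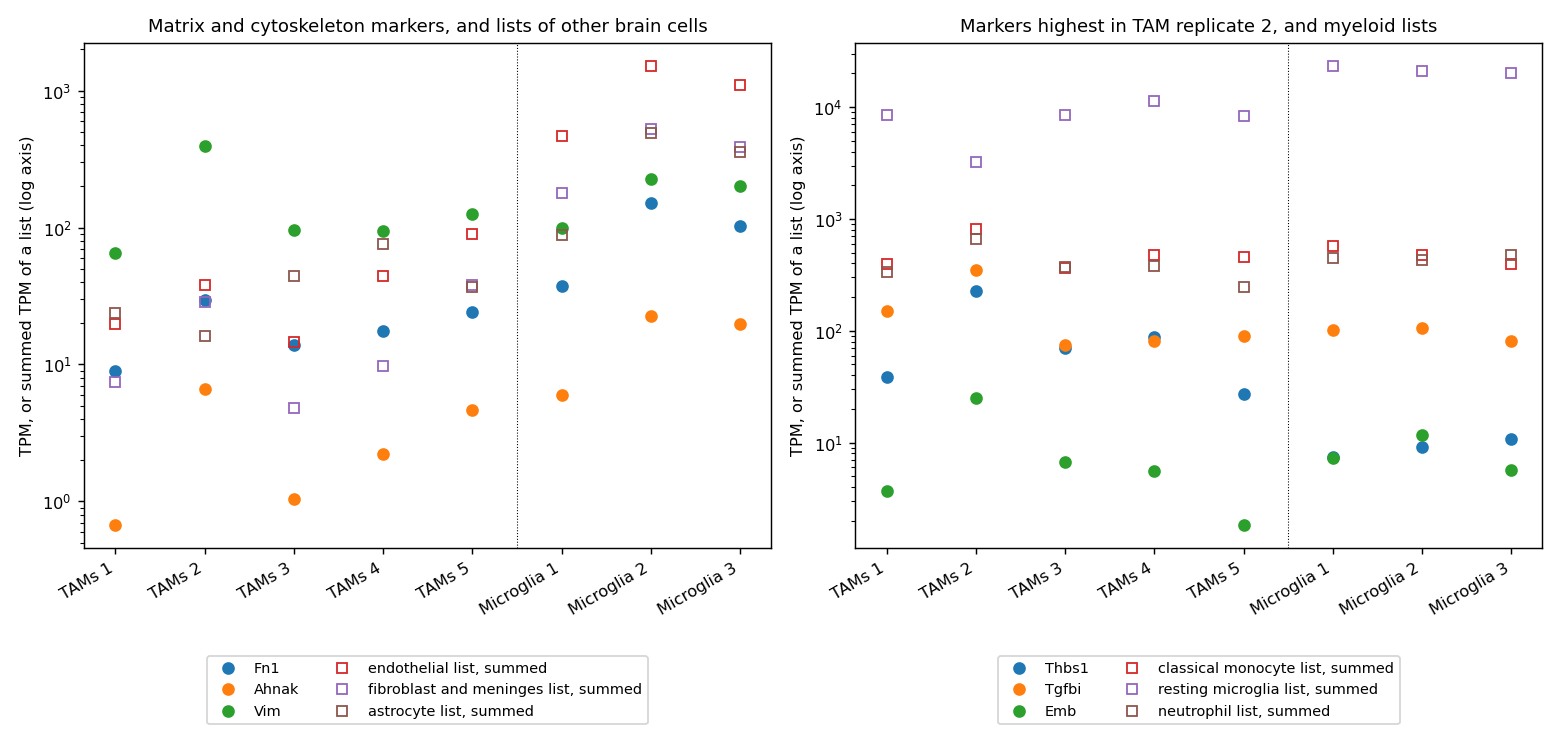
TPM of markers and summed TPM of cell type lists in each library, on log axes, TAMs left of the dotted line and Microglia right of it. The left panel shows Fn1, Ahnak and Vim with endothelial, fibroblast and meninges, and astrocyte lists, all 3 lists being lowest among Microglia in replicate 1, and the right panel shows Thbs1, Tgfbi and Emb with classical monocyte, resting microglia and neutrophil lists, in which TAM replicate 2 is highest for the monocyte and neutrophil lists and lowest for resting microglia.

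Kynu (chr2:43555329-43682715) encodes kynureninase, an enzyme of tryptophan breakdown along the kynurenine pathway. It had 2.89, 2.79, 5.19, 2.35 and 13.1 TPM in TAM replicates 1 to 5, against 0.765, 1.91 and 1.78 TPM in Microglia replicates 1 to 3. Every TAM library exceeded every Microglia library, TAM replicate 5 by the most. The mean was 5.26 ± 4.52 TPM in TAMs, against 1.48 ± 0.625 TPM in Microglia (SD, n = 5 and 3), a log2 fold change of 1.14 that narrowly missed the threshold (SE 0.47, limma adjusted p = 0.0608). On rescaled TPM it was 1.65 and passed (limma adjusted p = 0.00978). Of the rest of the pathway, 9 genes were in the table and 4 had enough TPM to be tested: none was higher and 1 was lower, Qprt. Qprt, which makes a precursor of NAD, had 0.528 to 3.18 TPM in TAMs, against 2.91 to 3.32 TPM in Microglia (log2 fold change -0.92, limma adjusted p = 0.0304), and did not pass on rescaled TPM (limma adjusted p = 0.308).

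Emb (chr13:117220625-117274098) encodes embigin, a membrane protein that escorts monocarboxylate transporters to the cell surface. It had 3.70, 25.0, 6.67, 5.55 and 1.83 TPM in TAM replicates 1 to 5, against 7.34, 11.8 and 5.69 TPM in Microglia replicates 1 to 3. TAM replicate 2 stood above all Microglia libraries, and TAM replicates 1, 4 and 5 below them. The mean was 8.54 ± 9.37 TPM in TAMs, against 8.26 ± 3.14 TPM in Microglia (SD, n = 5 and 3), and the log2 fold change of -0.34 (SE 0.63, limma adjusted p = 0.646) did not pass the test. On rescaled TPM its sign turned, at 0.31 (limma adjusted p = 0.728). Leaving out TAM replicate 2 gave -0.81 on TPM (limma adjusted p = 0.0967), and leaving out TAM replicate 5 gave -0.013 (limma adjusted p = 0.985). Of 5 related escort and transporter genes 1 was higher and 3 were lower on TPM, against 2 and 2 on rescaled TPM. Beside these stand 8.22% of all genes higher and 56.4% lower on TPM, and 25.2% and 24.1% on rescaled TPM. Slc16a3, the lactate exporter MCT4, had 34.9 to 78.5 TPM in TAMs, against 16.3 to 23.0 TPM in Microglia (log2 fold change 1.53, limma adjusted p = 0.00173). Slc16a1, which encodes MCT1, had 4.87 to 9.97 TPM in TAMs, against 19.6 to 47.7 TPM in Microglia (-2.02, limma adjusted p = 0.00112). Bsg, which encodes the related escort basigin and is abundant in brain endothelium, was lower as well (-1.38, limma adjusted p = 0.00118).

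Among the 5 TAM libraries the markers spread widely and in more than 1 pattern. The highest library had 24.4 times the lowest for Ly6c2, 13.7 times for Emb, 10.03 times for Plac8, 9.87 times for Ahnak and 8.25 times for Thbs1, and for the rest from 2.32 times for Lyz2 to 6.07 times for Vim. TAM replicate 2 was highest for 6 of the 10 (Fn1, Vim, Ahnak, Tgfbi, Thbs1 and Emb), while it was the highest TAM library for 18.3% of all tested genes. TAM replicate 1 was highest for 2, Ly6c2 and Plac8, against 6.88% of all genes. TAM replicate 5 was highest for Kynu alone, against 59.4% of all genes, and TAM replicate 3 for Lyz2, against 6.69%. TAM replicate 4 was highest for none of the 10, against 8.68%. TAM replicate 2 had the highest labelled age, 90 days, and age and library cannot be told apart with a single library of that age.

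**Figure D5:**
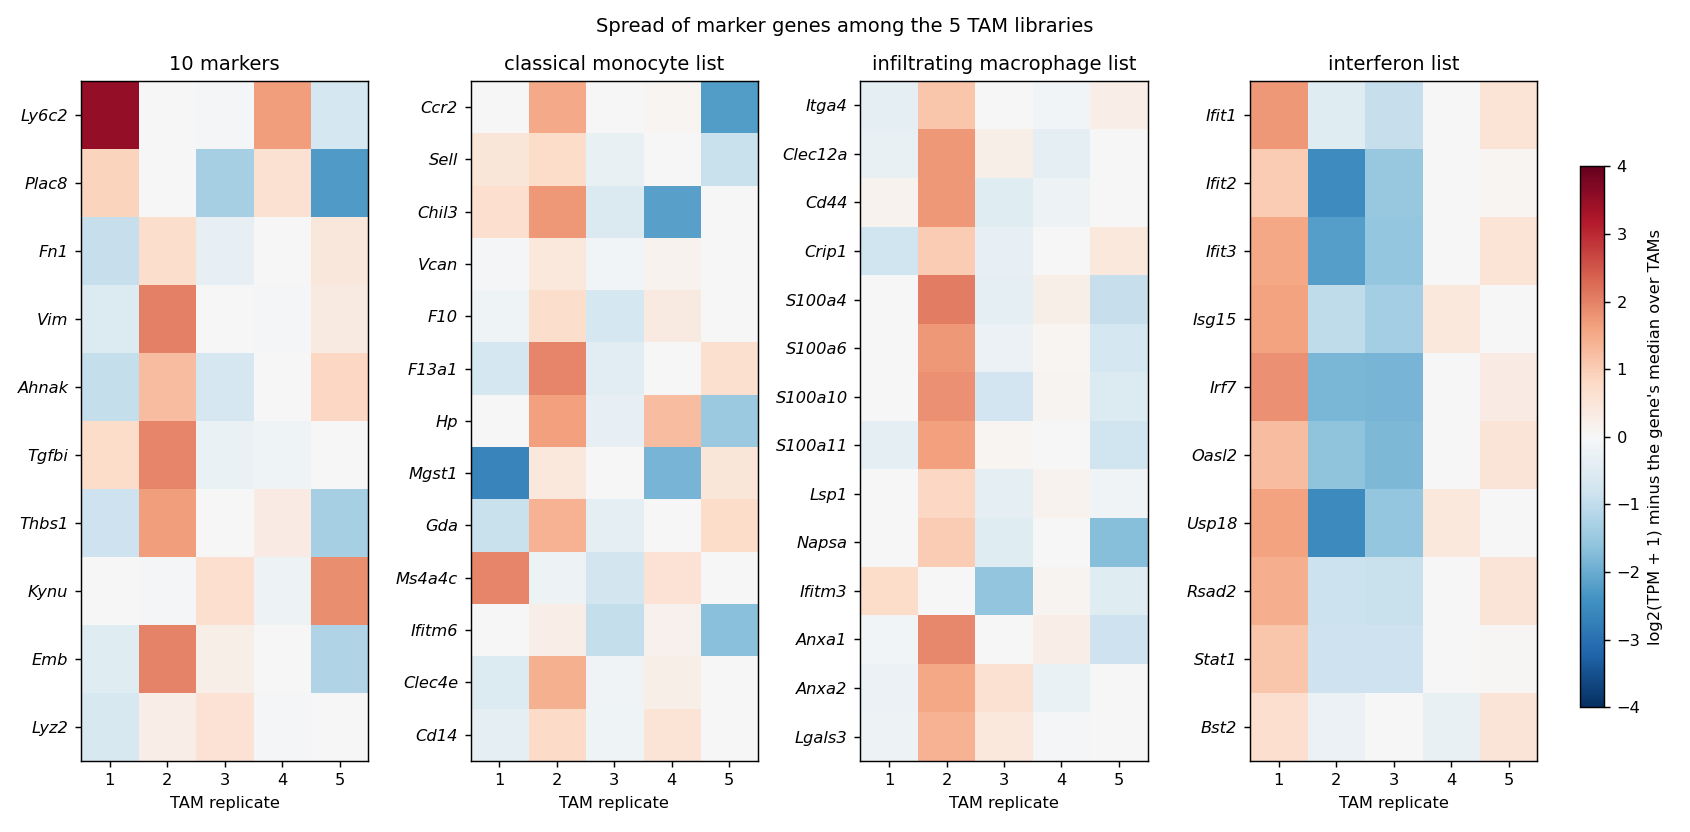
log2(TPM + 1) in the 5 TAM libraries minus each gene's median over them, as color, for the 10 markers, the classical monocyte list, the infiltrating macrophage list and the interferon list. TAM replicate 2 is highest for 6 markers and 11 and 13 genes of the monocyte and macrophage lists, while TAM replicate 1 is highest for Ly6c2 and Plac8 and for the 10 interferon genes, a list chosen after the values were seen.

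Other myeloid genes differed in TAM replicate 2 as well. Against the median of the other TAM libraries it had 4.16 times the Vim, 4.18 times the Thbs1, 4.10 times the Tgfbi and 5.40 times the Emb, but 0.446 times the Ly6c2. The 13 classical monocyte genes summed to 810.0 TPM there, against 362 to 479 TPM in the other TAM libraries, and 11 of the 13 were highest there. The 14 genes of infiltrating macrophages summed to 1970 TPM there and to 771 to 884 TPM in the others, with 13 of 14 highest there. The 13 resting microglia genes had 0.382 times the median of the other TAM libraries, the neutrophil genes 1.88 times and the fibroblast and meninges genes 3.34 times. Ccr2, the receptor that draws monocytes out of the bone marrow, had 48.3 TPM in TAM replicate 2 and 2.62 to 17.0 TPM in the other TAM libraries. The part of any cell type in these values was not tested.

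TAM replicate 1, where Ly6c2 and Plac8 were highest, stood apart on interferon genes. A list of 10 of these, chosen after the values were seen, summed to 1750 TPM there, and 10 of 10 were highest there among TAM libraries, against 6.88% of all genes, which is a description since the list was picked with these values known. Over the groups the list summed to 549 to 1750 TPM in TAMs, against 191 to 202 TPM in Microglia, with 3 of 10 higher on TPM and 7 of 10 on rescaled TPM. Ms4a4c, a monocyte gene, also peaked there at 141 TPM, against 21.1 to 53.3 TPM in the other TAM libraries.

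Further classical monocyte and infiltrating macrophage genes outside the 10 were more often higher than lower. Of all genes 8.22% were called higher on TPM and 25.2% on rescaled TPM. Of 12 tested classical monocyte genes 8 were higher (9 on rescaled TPM) and none was lower, with a median log2 fold change of 1.52 against -0.65 for all genes. Summed over the 13 listed, however, these genes came to 362 to 810 TPM in TAMs, against 397 to 577 TPM in Microglia. Only TAM replicate 2 lay above every Microglia library in this sum. Most of the sum in Microglia came from Cd14, at 283 to 440 TPM, and F13a1, at 88.7 to 127 TPM. In TAMs Cd14 had 153 to 344 TPM and F13a1 21.5 to 140 TPM. Neither gene was called on TPM or on rescaled TPM, so the sum says little about the other listed genes. The higher genes included Clec4e, a receptor for damaged cells, with 8.42 to 35.8 TPM in TAMs, against 0.459 to 0.654 TPM in Microglia (log2 fold change 3.35, limma adjusted p = 0.000293). Ms4a4c (3.30, limma adjusted p = 0.00134) and the clotting factor gene F10 (1.57, limma adjusted p = 0.00275) rose too. Ccr2 did not pass the test, at 20.0 ± 16.9 TPM in TAMs, against 5.77 ± 0.416 TPM in Microglia (SD, n = 5 and 3; log2 fold change 1.21, limma adjusted p = 0.149). Of 14 infiltrating macrophage genes 6 were higher (8 on rescaled TPM) and none was lower. That list summed to 771 to 1970 TPM in TAMs, against 451 to 799 TPM in Microglia. Lgals3, which encodes galectin 3, had 167 to 497 TPM in TAMs, against 5.61 to 8.23 TPM in Microglia (log2 fold change 4.91, limma adjusted p = 3.76e-05). Clec12a (2.46, limma adjusted p = 0.0018) and the hyaluronan receptor gene Cd44 (2.16, limma adjusted p = 0.00442) rose as well.

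Of 11 genes of nonclassical monocytes 2 were higher and 4 lower on TPM, against 2 and 1 on rescaled TPM. The list was thus less often lower than all genes, of which 56.4% were lower on TPM and 24.1% on rescaled TPM. Of all genes 8.22% were higher on TPM and 25.2% on rescaled TPM. Itgal, an integrin subunit of blood leukocytes, had 24.0 to 57.2 TPM in TAMs, against 1.31 to 2.20 TPM in Microglia (log2 fold change 3.86, limma adjusted p = 3.89e-05). Nr4a1, the transcription factor on which these monocytes depend, had 189 to 239.9 TPM in TAMs, against 434 to 549.6 TPM in Microglia (-1.24, limma adjusted p = 0.000143). On rescaled TPM Nr4a1 did not pass (limma adjusted p = 0.0552).

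The TAM libraries still held much RNA of resting microglia, at 3230 to 11300 TPM summed over 13 genes against 20100 to 23500 TPM in Microglia, with 10 of 13 lower (7 on rescaled TPM). Slc2a5, the fructose transporter of microglia, had 0.322 to 6.87 TPM in TAMs, against 377 to 407 TPM in Microglia (log2 fold change -6.60, limma adjusted p = 4.87e-05). Tmem119, a surface marker of microglia, had 53.5 to 150 TPM in TAMs, against 1164 to 1289 TPM in Microglia (-3.49, limma adjusted p = 9.05e-05). Of 8 tested neutrophil genes of 13 listed, 4 were higher and 2 lower (4 and 0 on rescaled TPM), and the list summed to 247 to 665 TPM in TAMs, against 434 to 481 TPM in Microglia. The alarmin genes S100a8 (log2 fold change 2.85, limma adjusted p = 0.00178) and S100a9 (2.73, limma adjusted p = 0.00707), which monocytes also make, were among those higher. The neutrophil gene Retnlg was higher too, while Csf3r and Mmp9 were lower on TPM. Lymphocyte genes summed to 2.09 to 4.39 TPM in TAMs, against 2.14 to 7.36 TPM in Microglia.

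The genes with profiles most like those of Ly6c2, Fn1 and Lyz2 were found among 8252 genes with a mean of at least 10 TPM, by the root mean square (RMS) difference of centered log2(TPM + 1) over the 8 libraries. For Ly6c2 they were Ass1 (0.60), H2-T22 (0.71) and Gbp2 (0.81). For Fn1 they were closer, Rgcc (0.21), Gm21961 (0.26) and Thra (0.29). For Lyz2 they were Runx3 (0.31), Apoe (0.34) and Epb4.1l3 (0.35). Runx3 had 11.9 to 25.1 TPM in TAMs, against 1.07 to 1.87 TPM in Microglia, while Rgcc had 1.56 to 5.95 TPM in TAMs, against 5.88 to 33.3 TPM in Microglia. These likenesses include the difference between the groups and are a description.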

How the data were processed

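The 8 libraries were grouped by the sample titles. Cells were freed with papain and caught on CD11b beads after myelin depletion, per the labels' protocols. The authors deposited TPM, per the file headers. The submitters' processing notes name mm10 as the build, and FastQC and DESeq2 as tools of the authors, with no version. The aligner, quantifier, annotation and strandedness were not stated there. The authors' deposited table also holds their DESeq2 comparison, as a log2 fold change and a p-value with no adjustment, per the file headers. A further 3 unnamed columns were not used. TPM keeps no depth, so the precision due to counting is unknown. TPM summed to 990422 to 997832 per library, of which Mir6236, Mir6240 and Gm15662 took 13.6% to 25.6% in TAMs and 3.20% to 15.3% in Microglia.

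Genes that reached 1 TPM in 3 or more libraries were tested with limma 3.58.1 (intensity trend, R 4.3.3) on log2(TPM + 1), with 8 libraries in 1 fit and no covariate. A fold change on this scale understates that of low genes. P-values were adjusted by Benjamini-Hochberg over all genes tested, at a threshold of 0.05, and the fit was tested on simulated data. The members, the lists and the tests were chosen with earlier results of these data known, and the interferon list was added after the values were seen. Genes outside the members were named by a rule: in each list and direction, up to 3 called genes with the lowest p, a few set genes, and the 3 nearest profiles. Rpl3 and Spi1 were chosen after their values were seen. Alternatives covered 2 rescalings, the dominant features, the pseudocount, the filter, the variance model, a replicate block, summed copies and leaving out each library. Across genes, log2(TPM + 1) correlated at 0.921 to 0.965 between TAM libraries and at 0.942 to 0.973 between Microglia libraries, so no library was a duplicate. Coding sequences were taken from GENCODE M21 (GRCm38, equal to mm10) and promoters from RefSeq.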

Additional observations from a re-analysis of the deposited data

Results flagged for a closer look

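In a test for a library far from the other 4 of the TAM group, 23 of 96 genes and list sums stood apart. They included 5 of the 10 markers, and 14 of the 23 were in TAM replicate 2, 5 in TAM replicate 5, 3 in TAM replicate 1 and 1 in TAM replicate 4. The cutoff of the test is passed by about 1 in 20 sets of independent, normally distributed values. TPM need not be normal, and list sums hold genes also counted singly, so 1 in 20 is not the chance rate here.

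Among the markers, TAM replicate 2 stood apart for Vim at 395 TPM (others 65.1 to 125 TPM), for Tgfbi at 350 TPM (others 74.6 to 151 TPM) and for Emb at 25.0 TPM (others 1.83 to 6.67 TPM). Ly6c2 in TAM replicate 1 was at 77.9 TPM (others 3.19 to 20.7 TPM). Kynu in TAM replicate 5 was at 13.1 TPM (others 2.35 to 5.19 TPM).

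TAM replicate 2 also stood apart for monocyte and macrophage genes: Clec4e at 35.8 TPM (others 8.42 to 15.1 TPM), Lgals3 at 497 TPM (others 167 to 257 TPM), Clec12a at 138 TPM (others 31.5 to 48.6 TPM) and Cd44 at 49.0 TPM (others 9.87 to 15.8 TPM). The same library had Retnlg, a neutrophil gene, at 132 TPM (others 6.67 to 16.2 TPM), Mmp9 at 21.9 TPM (others 4.76 to 9.72 TPM), Cd209a at 19.2 TPM (others 1.83 to 6.24 TPM) and Qprt at 3.18 TPM (others 0.528 to 1.14 TPM). Its summed lists stood apart for classical monocytes at 810.0 TPM (others 362 to 479 TPM), infiltrating macrophages at 1970 TPM (others 771 to 884 TPM) and the kynurenine pathway at 34.3 TPM (others 9.93 to 15.7 TPM).

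TAM replicate 1 stood apart for Ms4a4c at 141 TPM (others 21.1 to 53.3 TPM) and Ly6a at 102 TPM (others 5.02 to 20.0 TPM). TAM replicate 5 did so for Vtn at 9.37 TPM (others 1.27 to 3.56 TPM), Ly6c1 at 15.8 TPM (others 1.01 to 3.65 TPM), the mural gene Myh11 at 0.224 TPM (others 0.0218 to 0.0537 TPM) and the astrocyte gene Slc1a2 at 1.06 TPM (others 0.225 to 0.353 TPM). Ace in TAM replicate 4 was at 7.84 TPM (others 1.36 to 2.82 TPM).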

How the results depend on the processing

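Lyz2, Thbs1, Plac8 and Fn1 kept their direction and call under all 17 alternatives run. Rescaled TPM called 3841 genes higher and 3677 lower, with 1 marker lower. Scaling to Ptprc called 663 genes higher. On rescaled TPM the counts of lists that moved were: nonclassical monocyte lower 1, matrix receptor lower 0, matrix partner higher 1 and lower 3, kynurenine lower 0, embigin and transporter higher 2, Ly6 family higher 1, border macrophage lower 3, neutrophil lower 0, dendritic lower 1, lymphocyte lower 0, fibroblast and meninges lower 5, and leukocyte reference higher 3. Scaled to Ptprc they were: classical monocyte lower 1, nonclassical monocyte higher 1, matrix receptor higher 0 and leukocyte reference higher 0. Signs turned for Vim (0.33) and Emb (0.31) on rescaled TPM, for Ly6c2 summed with Ly6c1 (-4.54), and for Emb with the replicate block (0.13). Kynu was called on rescaled TPM, without the 3 dominant features, with a pseudocount of 0.1, with the replicate block and without TAM replicate 4 or 5, and had no value under the filter of 5 TPM. Ahnak lost its call on rescaled TPM and without Microglia replicate 2 or 3. The cause was not tested.

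Leaving out 1 library at a time gave 894 to 1303 genes higher and 5581 to 9243 lower, and 3 to 4 markers higher and 1 to 2 lower. Ly6c2 ranged from -0.21 to 0.85 and Tgfbi from -0.0039 to 0.55. Counts higher ranged 5 to 9 for classical monocyte, 1 to 3 for nonclassical monocyte, 3 to 6 for infiltrating macrophage, 0 to 1 for matrix receptor, 0 to 1 for Ly6 family and 1 to 2 for dendritic genes. Counts lower ranged 0 to 2 for classical monocyte, 3 to 4 for nonclassical monocyte, 0 to 2 for infiltrating macrophage, 1 to 4 for matrix receptor, 4 to 6 for matrix partner, 0 to 2 for kynurenine, 2 to 4 for intermediate filament, 3 to 6 for border macrophage, 1 to 2 for neutrophil, 0 to 1 for lymphocyte, 4 to 10 for mural, 5 to 8 for fibroblast and meninges and 5 to 8 for astrocyte genes.

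Same-numbered TAM and Microglia libraries deviated with correlations of 0.15, 0.014 and -0.051. TAM replicates 1 and 2 were closest to their own number, and TAM replicate 3 was not. Deviations were taken from the mean of a small group, which ties them to each other, so these correlations cannot decide whether the numbers pair libraries. With the replicate block 1103 genes were higher and 8613 lower, with 4 markers higher and 2 lower. TPM keeps no depth, which limits what can be said of low genes.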

Other observations

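Macrophages of the brain's borders, in the meninges and around vessels, share several genes with monocyte-derived cells. Of 10 border macrophage genes 3 were higher and 5 lower in TAMs on TPM, and 3 were higher and 3 lower on rescaled TPM. Of all genes 8.22% were higher and 56.4% lower on TPM, and 25.2% and 24.1% on rescaled TPM. The lower count on TPM and both counts on rescaled TPM were thus near the shares of all genes. Ms4a7 had 176 to 474 TPM in TAMs, against 36.0 to 59.3 TPM in Microglia (log2 fold change 2.68, limma adjusted p = 0.000332), and the folate receptor gene Folr2 had 116 to 238 TPM in TAMs, against 47.9 to 79.5 TPM in Microglia (1.49, limma adjusted p = 0.0011). Lyve1 (-2.76, limma adjusted p = 0.001), Cd209f (-2.82, limma adjusted p = 0.00178) and the hemoglobin receptor gene Cd163 (-2.13, limma adjusted p = 0.00462) were lower. Of 6 tested dendritic cell genes of 8 listed, 1 was higher and 2 were lower on TPM, against 1 and 1 on rescaled TPM. Itgax, the integrin subunit CD11c, had 69.0 to 141 TPM in TAMs, against 10.2 to 13.4 TPM in Microglia (3.01, limma adjusted p = 7.59e-05).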
